A study of Mus musculus with 4 samples.

Results

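The genes described are 6 chains of the receptors for the colony-stimulating factors and the related cytokine interleukin-3, together with the gene of the M-CSF ligand. They are Csf1r, Csf2ra, Csf2rb, Csf2rb2, Csf3r, Il3ra and Csf1, chosen by gene symbol, and all 7 were found among the 19938 genes that a single platform symbol named. Each had 1 probe set, and 0 probe sets with several symbols named a member. All 7 passed the filter on dim genes, which left 14995 genes for testing.

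RNA was measured on Affymetrix arrays in sorted macrophages grown from the bone marrow of C57BL/6J mice, and the labels give no engineered allele or further treatment. The first group, called M1 by the submitters, was grown for 7 days with GM-CSF and sorted for CD45, MHCII and Adgre1 protein, a surface marker of mouse macrophages, in cells without CD8a, and the second, called M2, was grown for 7 days with M-CSF from 20% L929 fibroblast supernatant and sorted for CD45, CD11b and the same Adgre1 protein. Both grew in RPMI with serum, and each group had 2 arrays. The labels do not say whether the arrays of a group came from separate animals or cultures. For the GM-CSF arrays, sex-linked genes given below bear on this. A p-value here weighs a difference only against the spread between arrays, pooled with that of other genes. Part of this spread may be technical. Growth factor, supernatant and sort gate changed together and cannot be told apart.

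The colony-stimulating factors are secreted proteins that keep myeloid precursors and macrophages alive and growing. M-CSF binds Csf1r, a receptor tyrosine kinase, whereas GM-CSF, interleukin-3 and interleukin-5 each bind an alpha chain of their own and then share a signalling beta chain that carries the kinase Jak2 and activates Stat5. Mice have an additional beta chain, encoded by Csf2rb2, that serves interleukin-3 and lies beside Csf2rb, the shared beta chain, in the genome. G-CSF, the neutrophil factor, acts through Csf3r alone.

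Promoter sequences are shown for 3 members whose expression differed between the groups, as context for their values. They are the 250 bases before the RefSeq gene start in GRCm38.p6, written 5′ to 3′ on the gene's strand. Csf2ra lies at chr19:61228419-61228668 on the minus strand, Csf2rb2 at chr15:78305722-78305971 on the minus strand and Csf3r at chr4:126024409-126024658 on the plus strand. Capitals mark every match, on either strand, to GAGGAA (the core bound by PU.1, the myeloid transcription factor encoded by Spi1), TTCNNNGAA (bound by STAT factors) or TGACGTCA (the cyclic AMP response element).
Csf2ra: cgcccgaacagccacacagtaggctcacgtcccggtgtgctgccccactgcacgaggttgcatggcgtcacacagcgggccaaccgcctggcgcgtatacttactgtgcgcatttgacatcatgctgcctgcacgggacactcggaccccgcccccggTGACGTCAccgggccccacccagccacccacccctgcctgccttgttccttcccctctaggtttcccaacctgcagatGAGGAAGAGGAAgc
Csf2rb2: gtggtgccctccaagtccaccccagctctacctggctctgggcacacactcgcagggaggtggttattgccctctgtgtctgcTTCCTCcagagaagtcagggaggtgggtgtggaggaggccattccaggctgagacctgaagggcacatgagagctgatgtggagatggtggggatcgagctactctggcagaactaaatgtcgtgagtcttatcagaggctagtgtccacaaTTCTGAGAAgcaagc
Csf3r: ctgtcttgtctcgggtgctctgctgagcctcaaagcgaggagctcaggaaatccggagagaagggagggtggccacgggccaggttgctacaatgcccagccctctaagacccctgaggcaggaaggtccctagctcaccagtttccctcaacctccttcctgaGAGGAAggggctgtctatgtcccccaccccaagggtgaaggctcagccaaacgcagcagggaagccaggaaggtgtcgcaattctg
The Csf2ra sequence held 2 adjacent GAGGAA matches, starting 14 and 8 bases before the gene start, and TGACGTCA starting 92 bases before it. The Csf2rb2 sequence held GAGGAA on the opposite strand, starting 167 bases before the gene start, and TTCNNNGAA starting 15 bases before it. The Csf3r sequence held GAGGAA at 86 bases before the gene start and no TTCNNNGAA or TGACGTCA. Over 32851 RefSeq promoter windows of the same length, 23.3% held GAGGAA, 7.02% held TTCNNNGAA and 1.55% held TGACGTCA, so GAGGAA alone was common. The windows of Csf1 and Il3ra held none of these 3 motifs. Each match describes letters in this window and not a bound site.

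The macrophage genes Adgre1, Itgam and Lyz2 were bright on all 4 arrays. Both groups were sorted for Adgre1 protein, so Adgre1 is no independent check of cell identity. Itgam encodes CD11b, for which the M-CSF group was sorted, so it is no independent check in that group either. Dendritic cell and other markers are given further below. Adgre1 lay between 12.32 and 12.79 on the log2 scale of the deposited values, Itgam between 11.77 and 11.87 and Lyz2 between 13.24 and 13.31, far above the background taken from 1027 olfactory receptor genes (mean 95th percentile 5.90). The GM-CSF arrays differed more from each other (SD of the log2 difference over all tested genes 0.325) than the M-CSF arrays (0.180). Xist, the noncoding RNA that silences an X chromosome, read 11.58 in GM-CSF replicate 1 and between 4.53 and 4.93 in the other arrays, and Eif2s3y, a Y-linked gene, read 3.66 there and between 9.10 and 9.32 in the others. These are the readings of female cells on that array and of male cells on the other 3, so the GM-CSF arrays came from different animals and differed in sex. The part of this in the results was not tested, and each member's difference is given with and without that array.

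Both chains of the GM-CSF receptor and the interleukin-3 beta chain were higher in GM-CSF M1 cells, the G-CSF receptor was lower, and the M-CSF receptor, the interleukin-3 alpha chain and M-CSF itself did not pass the test. Of the 7 members, 3 passed as higher and 1 as lower (adjusted p of limma, by Benjamini-Hochberg over all genes tested, under 0.05), where 6.18% of all tested genes were higher and 4.53% lower, 10.7% in all. The arrays of the groups did not overlap for 5 members, as for 55.4% of all tested genes. The median difference of the members was 1.13 on the log2 scale, against -0.01 over all tested genes. The members were chosen with earlier results of these data known, so this comparison with all genes is no test of the list. Differences are M1 minus M2 with the moderated standard error of limma and n = 2 arrays per group.

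**Figure D1:**
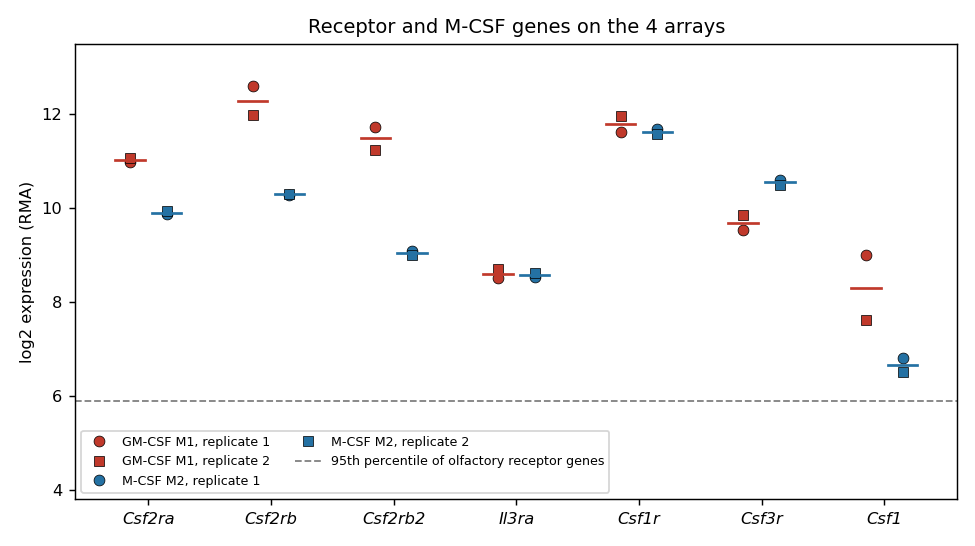
Log2 expression (RMA) of each member on the 4 arrays, with circles for replicate 1, squares for replicate 2, short bars for the mean of each group and a dashed line at the olfactory receptor 95th percentile of 5.90. Csf2ra, Csf2rb and Csf2rb2 are separated upwards in GM-CSF M1 arrays and Csf3r downwards, Csf1r and Il3ra overlap, and the GM-CSF points of Csf1 lie far apart at 8.99 and 7.61.

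Csf2ra encodes the alpha chain, which binds GM-CSF with low affinity and gives the receptor its specificity. Its log2 values were 10.99 and 11.07 in GM-CSF replicates 1 and 2 and 9.87 and 9.94 in M-CSF replicates 1 and 2. Both groups were tight, with 0.08 between the GM-CSF arrays and 0.07 between the M-CSF arrays, and they did not overlap. The difference was 1.13 ± 0.11 SE, or 2.19-fold (limma, adjusted p = 0.00206, 95% interval 0.87 to 1.39). With only GM-CSF replicate 2 kept it was 1.17, and with only replicate 1 it was 1.09, so the array that stood apart hardly moved it. The call was lost without M-CSF replicate 1 (limma, adjusted p = 0.0612) and without M-CSF replicate 2 (0.0565), while the difference was 1.095 and 1.165. In such bulk samples, fewer cells carrying a transcript and less of it in each cell cannot be told apart.

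Csf2rb encodes the beta chain that GM-CSF, interleukin-3 and interleukin-5 share. It read 12.60 and 11.98 in GM-CSF replicates 1 and 2 and 10.29 and 10.30 in M-CSF replicates 1 and 2. The GM-CSF arrays lay 0.62 apart, the M-CSF arrays 0.02 apart, and the groups did not overlap. The difference was 1.996 ± 0.20 SE, 3.99-fold (limma, adjusted p = 0.00273). Keeping only GM-CSF replicate 2 gave 1.69, and keeping only replicate 1 gave 2.31. Without M-CSF replicate 1 or 2 the call was lost (limma, adjusted p = 0.0766 and 0.0772).

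Csf2rb2 encodes the mouse beta chain that works with interleukin-3. Its values were 11.74 and 11.24 in the GM-CSF arrays and 9.09 and 8.99 in the M-CSF arrays. It had the largest difference among the 7 members and the groups did not overlap. The difference was 2.45 ± 0.18 SE, 5.46-fold (limma, adjusted p = 0.000766, 95% interval 2.02 to 2.88). Csf2rb2 was the 1 member of 7 called with every array left out in turn. The limma adjusted p came to 0.0342 when M-CSF replicate 1 was dropped and to 0.0410 when M-CSF replicate 2 was. Dropping GM-CSF replicate 1 gave a difference of 2.20, and dropping GM-CSF replicate 2 gave 2.70.

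**Figure D2:**
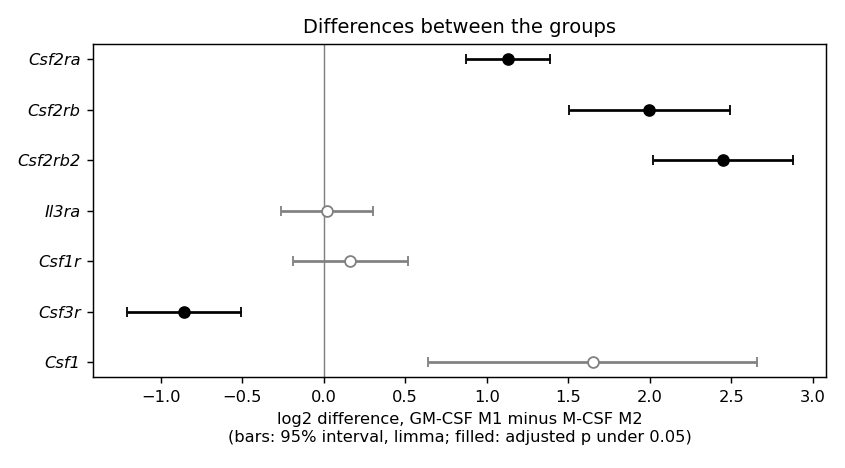
Log2 difference of each member, GM-CSF M1 minus M-CSF M2, with the 95% interval of limma and filled symbols for adjusted p under 0.05. Csf2rb2 has the largest difference at 2.45 and Csf3r lies below 0 at -0.86, while the wide interval of Csf1 (0.64 to 2.66) goes with an adjusted p of 0.0582.

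The beta chain genes are close paralogs, so their shifts were set against each other within each array. Probe sets bind with different strength, so the size of such a gap says nothing about which gene is more abundant. Its change between groups compares the measured shifts of the probe sets. Csf2rb minus Csf2rb2 was 0.87 and 0.74 in GM-CSF replicates 1 and 2 and 1.20 and 1.31 in M-CSF replicates 1 and 2. The gap was thus narrower on both GM-CSF arrays. The change was -0.45 ± 0.08 SE, the measured shift of Csf2rb2 being the larger. The SE of a change in a gap came from the spread of that gap alone. It was not moderated, unlike the SE of a single gene, so the 2 kinds are not comparable. An exact two-sided permutation test gave p = 0.333, the smallest that 2 against 2 arrays allow, and 0.333 after adjustment over 4 pairs. With that floor it cannot decide whether the genes changed unequally. Both genes read higher on GM-CSF replicate 1 than on replicate 2, by 0.62 and 0.50. Whether a transcript of one gene also binds probes of the other was not tested.

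The other member pairs were compared in the same way. Csf2rb minus Csf2ra was 1.61 and 0.91 in the GM-CSF arrays and 0.42 and 0.37 in the M-CSF arrays, a change of 0.87 ± 0.35 SE. It fell to 0.52 without GM-CSF replicate 1, against 1.21 without replicate 2, so its size depended on the GM-CSF array kept. Csf2rb minus Csf1r was 0.98 and 0.01 against -1.40 and -1.27, a change of 1.83 ± 0.49 SE. Csf2ra minus Il3ra was 2.48 and 2.38 against 1.33 and 1.31, and its change of 1.11 ± 0.05 SE was the most even over the arrays. Each of these gaps separated the groups without overlap, and each exact permutation p was 0.333.

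**Figure D3:**
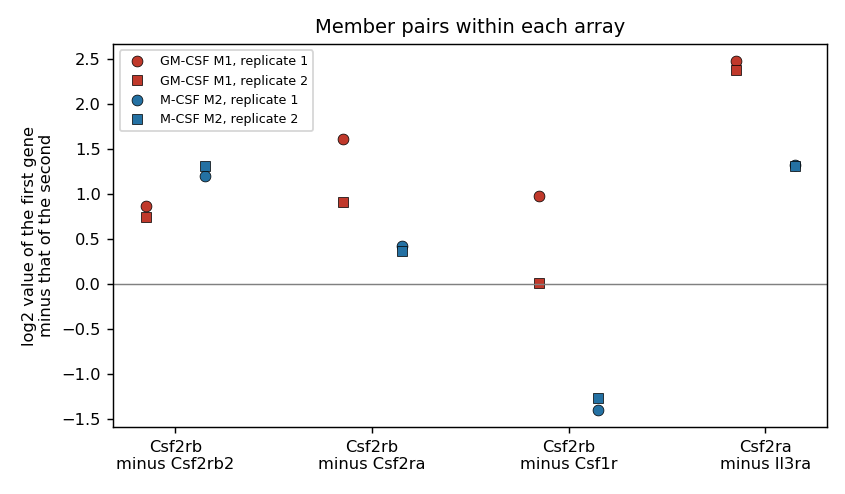
Log2 value of the first gene minus that of the second on each array, for 4 member pairs. Only the change between GM-CSF M1 (red) and M-CSF M2 (blue) can be read across probe sets: Csf2rb minus Csf2rb2 is lower on both GM-CSF arrays (0.87 and 0.74 against 1.20 and 1.31) and the other 3 gaps are higher there.

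Il3ra encodes the alpha chain that binds interleukin-3. It read 8.51 and 8.69 in the GM-CSF arrays and 8.54 and 8.63 in the M-CSF arrays. The groups overlapped and their difference of 0.02 ± 0.12 SE did not pass (limma, adjusted p = 0.946). Its 95% interval of -0.26 to 0.30 covers changes in either direction. So of the interleukin-3 receptor genes the beta chains were higher in M1 cells, and for the alpha chain no difference was detected. The sign of the Il3ra difference turned to -0.01 with arrays centred on their medians or quantile normalized again, and to -0.07 without GM-CSF replicate 2 and -0.02 without M-CSF replicate 1. It was 0.11 without GM-CSF replicate 1. Mast cells and basophils carry much interleukin-3 receptor. Of their 6 markers, 5 had group means in the background range in both groups, among them Fcer1a, Mcpt8 and Cpa3. Cpa3 was not tested, and it was uneven, at 5.91 and 4.46 on the GM-CSF arrays and 4.77 and 4.61 on the M-CSF arrays. The mean log2 level of that list was 5.15 and 4.86 on the GM-CSF arrays, and 4.87 and 4.94 on the M-CSF arrays. Of its genes 2 were tested with limma, and 0 had an unadjusted p under 0.05.

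Csf1r encodes the M-CSF receptor, which macrophages need for survival. It was bright in both groups, at 11.62 and 11.97 in the GM-CSF arrays and 11.69 and 11.57 in the M-CSF arrays. The groups overlapped, and GM-CSF replicate 2 was the highest array. The difference was 0.16 ± 0.15 SE (limma, adjusted p = 0.566), with a 95% interval of -0.19 to 0.52. It was -0.01 when GM-CSF replicate 2 was dropped and 0.34 when replicate 1 was, so its direction depended on the array kept. A 2-fold change, 1 on the log2 scale, lay outside the interval.

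Csf3r encodes the G-CSF receptor, a homodimeric receptor best known from neutrophils and also present on monocytes. It read 9.52 and 9.86 in the GM-CSF arrays and 10.61 and 10.50 in the M-CSF arrays. It was the 1 member that was lower in M1 cells, and the groups did not overlap. The difference was -0.86 ± 0.14 SE, 1.81-fold (limma, adjusted p = 0.0163). Dropping GM-CSF replicate 1 gave -0.69, and dropping replicate 2 gave -1.03. The call was lost without M-CSF replicate 1 (limma, adjusted p = 0.198) or M-CSF replicate 2 (0.162). Of 10 neutrophil markers, 8 were tested and Mpo alone passed, where 10.7% of all tested genes were called. Mpo was lower in M1 cells as Csf3r was (-0.64 ± 0.10 SE, limma adjusted p = 0.0132), with the GM-CSF values 5.65 and 5.68 in the background range. That Mpo call was lost without M-CSF replicate 1 or 2 (limma, adjusted p = 0.160 and 0.163). Ly6g, a neutrophil surface marker, and S100a8, a calprotectin subunit abundant in neutrophils, had differences of 1.02 and 0.89 without passing. Both were smaller without GM-CSF replicate 1, at 0.65 and 0.14, and larger without GM-CSF replicate 2, at 1.39 and 1.64. The log2 of the summed linear levels of the neutrophil list ran from 9.34 to 10.46 in GM-CSF and from 9.58 to 9.78 in M-CSF arrays. The group means of Ly6g, Cxcr2 and Retnlg lay in the background range in both groups.

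Csf1 encodes M-CSF, the ligand of Csf1r. It read 8.99 and 7.61 in the GM-CSF arrays and 6.81 and 6.499 in the M-CSF arrays. All 4 arrays lay above the background range and both GM-CSF arrays above both M-CSF arrays, but the GM-CSF arrays were 1.38 apart, the widest gap of any member. The difference was 1.65 ± 0.42 SE, 3.13-fold, and did not pass (limma, adjusted p = 0.0582). It was 0.96 without GM-CSF replicate 1 (limma, adjusted p = 0.000271) and 2.34 without GM-CSF replicate 2 (1.07e-08), fits in which the closer M-CSF pair alone sets the spread. Without M-CSF replicate 1 or 2 the adjusted p was 0.294 and 0.344. The M-CSF cells received M-CSF in fibroblast supernatant, and fibroblast markers were examined beside this result. Both groups were sorted for CD45, which fibroblasts lack, and whether any fibroblast RNA remained was not tested. Of 7 fibroblast markers 5 were tested and 1 passed, where 10.7% of all tested genes were called. It was Dcn, a matrix proteoglycan gene, higher in M1 cells (1.07 ± 0.25 SE, limma adjusted p = 0.0465). Dcn lost its call without M-CSF replicate 1 or 2 (limma, adjusted p = 0.202 and 0.318), with no filter (0.0591), with median centring (0.0539), with quantile normalization (0.0668) and with trended and robust variances (0.0787). The log2 of the summed levels of that list ran from 9.14 to 9.45 in GM-CSF and from 9.12 to 9.17 in M-CSF arrays, with Lum and Postn in the background range in both groups. Its part in the Csf1 difference was not tested.

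**Figure D4:**
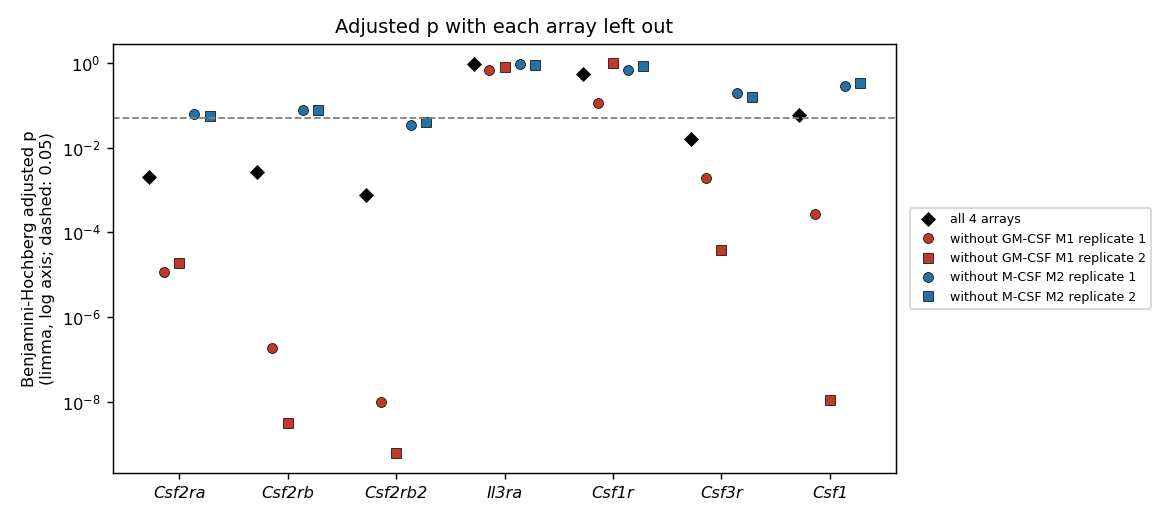
Benjamini-Hochberg adjusted p of limma (log axis) for each member with all 4 arrays and with each array left out, with a dashed line at 0.05. Csf2rb2 lies under the line in all 5 fits, whereas Csf2ra, Csf2rb and Csf3r rise above it without either M-CSF array and Csf1 lies under it without either GM-CSF array.

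Leaving out arrays moved the calls of many genes and not only of the members. Without M-CSF replicate 1, limma called 1 member higher and 0 lower (5 members had an unadjusted p under 0.05), where 1.31% of all tested genes were higher and 0.433% lower, 1.74% in all. Without M-CSF replicate 2, it called 1 member higher and 0 lower (4 at an unadjusted p under 0.05), where 1.12% of all tested genes were higher and 0.433% lower, 1.55% in all. Without GM-CSF replicate 1, 4 members were higher and 1 lower, where 9.79% of all genes were higher and 7.86% lower, 17.6% in all. Without GM-CSF replicate 2, 4 members were again higher and 1 lower, where 11.2% of all genes were higher and 10.2% lower, 21.4% in all. The single array of a group was assumed to vary like the other group.

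The members were unlike in how many genes shared their profile over the arrays. Likeness was the Euclidean distance between the 4 log2 values after each gene was centred on its own mean, and it describes 4 arrays only. Within a distance of 0.3, Il3ra had 7948 other genes and Csf1r 3743, Csf3r had 247, Csf2ra 128, Csf2rb 28, Csf2rb2 12 and Csf1 8. The nearest named genes to Csf2ra were Arhgef3, Sema4b and Micall2 (distances 0.04, 0.07 and 0.08), and to Csf2rb St8sia4, Socs1 and Acap1 (0.12 each). Those of Csf2rb2 were Malt1 at 0.07, Clec9a at 0.18 and Anpep at 0.19. Csf1 lay nearest to Hsd11b1 at 0.17, Nabp1 at 0.20 and Cst7 at 0.22, which also read higher on GM-CSF replicate 1 than on replicate 2. Csf3r lay nearest to Snx8, Rab31 and Rps9 (0.04, 0.05 and 0.05). Csf1r lay nearest to Lrch1, Adam17 and Tekt1 and Il3ra to Nfic, Ezhip and Ildr1, all within 0.03.

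Position was a feature that the choice of members did not use. In the RefSeq gene order Csf2rb2 and Csf2rb are neighbours, with Ncf4, a subunit of the phagocyte NADPH oxidase, on the Csf2rb2 side and Tex33 and then Tst, a mitochondrial sulfurtransferase gene, on the Csf2rb side. Ncf4 read 10.04 and 10.28 in GM-CSF and 9.45 and 9.42 in M-CSF arrays and was higher by 0.72 ± 0.12 SE (limma, adjusted p = 0.0164). Tst read 7.68 and 7.52 against 6.91 and 6.78 and was higher by 0.76 ± 0.12 SE (limma, adjusted p = 0.0128). Tex33 lay between 4.75 and 5.03, under the filter. The neighbouring genes of Csf1r, Pdgfrb (0.57 ± 0.14 SE, limma adjusted p = 0.0572) and Hmgxb3 (0.01 ± 0.12 SE), did not pass. Grik3 and Mrps15, beside Csf3r, differed by 0.03 and -0.02 without passing. Gstm5, a glutathione transferase gene one place beyond the neighbour of Csf1, was lower in M1 cells (-1.16 ± 0.11 SE, limma adjusted p = 0.00177), opposite in sign to Csf1, while the adjacent genes Ahcyl1 and Eps8l3 differed by 0.34 and -0.03 without passing. These neighbours were looked up after the member values were known, and the values of Ncf4, Tst and Gstm5 under other settings are not given.

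The ligands of these receptors, other than Csf1, were at or near background in both groups. Csf2, which encodes GM-CSF, read from 4.25 to 4.62 over the 4 arrays, Il3 from 3.40 to 3.62 and Il5 from 4.51 to 4.70, and none of them passed the filter on dim genes. Csf3, the G-CSF gene, had values of 5.69 and 5.87 in GM-CSF against 5.29 and 5.57 in M-CSF arrays (0.35 ± 0.14 SE, limma adjusted p = 0.186). Il34, the alternative ligand of Csf1r, read from 5.81 to 6.00 with a difference of 0.01. Of the 5 other ligand genes, 2 were tested and 0 passed limma's test (1 had an unadjusted p under 0.05), against 10.7% of all genes. The other tyrosine kinase receptors of the Csf1r class (Kit, Flt3, Pdgfra and Pdgfrb) were also near background, and 0 of 4 passed limma's test (2 had an unadjusted p under 0.05). Pdgfrb came nearest, with the adjusted p of 0.0572 given above, and passed with trended and robust variances (0.0424). Its difference ran from 0.44 to 0.70 with an array left out. Its side of the threshold depended on the array dropped, as did those of Kit and Flt3.

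Other chains of the type I cytokine receptor family differed in both directions. Of 14 listed, 12 were measured and 9 tested, of which 3 were higher in M1 cells, 4 lower and 2 did not pass (median 0.07, against -0.01 over all genes). Over all tested genes, 10.7% were called. Il7r, the interleukin-7 receptor, was 5.06-fold higher (11.51 and 10.77 against 8.94 and 8.65, a difference of 2.34 ± 0.25 SE). Il13ra1, an interleukin-13 receptor chain, was 4.39-fold higher (2.13 ± 0.23 SE) and Il21r 1.84-fold (0.88 ± 0.13 SE). Those lower were Il2ra (-1.43 ± 0.19 SE), Lifr (-1.27 ± 0.16 SE), Il4ra (-0.85 ± 0.11 SE) and Il6ra (-0.69 ± 0.11 SE). In M1 cells Lifr lay in the background range. Il5ra, the alpha chain that pairs with Csf2rb for interleukin-5, lay in the background range on all 4 arrays, at 4.30 or below. Without M-CSF replicate 1 or 2, 0 of these 9 genes passed limma's test, and 7 had an unadjusted p under 0.05 in each.

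Among genes that act directly downstream of the GM-CSF receptor, Jak2 was the single one of 14 tested that passed, where 10.7% of all tested genes were called. Jak2, the kinase bound to the beta chain, read 10.25 and 10.52 in GM-CSF arrays and 8.59 and 8.39 in M-CSF arrays. It was 3.72-fold higher, a difference of 1.90 ± 0.14 SE (limma, adjusted p = 0.000856), and it kept its call with every array left out in turn (adjusted p up to 0.0397). Stat5a and Stat5b, the transcription factors that the receptor activates, differed by 0.34 ± 0.12 SE and 0.15 ± 0.11 SE without passing. Jak1 differed by 0.13 ± 0.11 SE, and Shc1 and Grb2, adaptors of the Ras pathway, by 0.34 ± 0.17 SE and -0.27 ± 0.15 SE. The list had a median difference of 0.11. Without GM-CSF replicate 1, 2 of its genes were higher and 0 lower, where 17.6% of all genes were called, and without GM-CSF replicate 2, 1 was higher and 3 lower, where 21.4% were.

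Several genes that Stat5 is known to induce were higher in M1 cells. Of 13 tested, 4 were higher, 0 lower and 9 did not pass (median 0.52), where 10.7% of all tested genes were called. The 4 were Socs1 (1.90 ± 0.22 SE), Socs2 (3.13 ± 0.70 SE) and Socs3 (1.20 ± 0.11 SE), feedback inhibitors of cytokine receptors, and Osm, a cytokine of the interleukin-6 family (1.14 ± 0.22 SE). Socs3 was even between replicates, at 9.70 and 9.65 against 8.54 and 8.40. Socs2 was not, at 9.33 and 6.91 against 4.85 and 5.13, and Cish, at 9.54 and 7.03 against 6.03 and 6.28, did not pass (limma, adjusted p = 0.128). Like Csf1 and Csf2rb, these 2 genes read highest on GM-CSF replicate 1. Pim2 of the same list lay in the other direction, at 7.60 and 9.04 against 9.56 and 9.51, with no overlap. The Pim2 difference of -1.21 ± 0.42 SE did not pass (limma, adjusted p = 0.135). It was -0.49 when the second GM-CSF array alone was kept and -1.93 when the first alone was. Bcl2l1 differed by -0.04. The Socs2 difference was 1.92 without GM-CSF replicate 1, and its call was lost without M-CSF replicate 1 or 2 (limma, adjusted p = 0.307 and 0.262), with probe sets averaged (0.0711), with no filter (0.0512), with quantile normalization (0.0586) and with trended and robust variances (0.277). Without M-CSF replicate 1 or 2, most or all of the calls in this list were lost, and calls also fell over all tested genes. Leaving out either GM-CSF array raised the number called in this list, as it did over all tested genes. The Socs3 difference ran from 1.13 to 1.27 with an array left out.

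**Figure D5:**
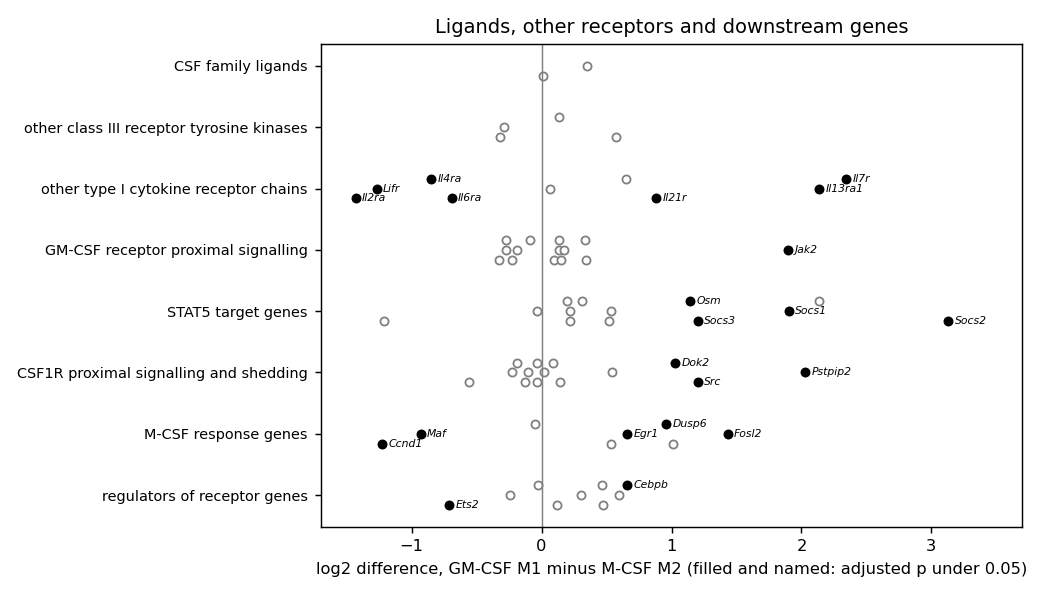
Log2 difference, GM-CSF M1 minus M-CSF M2, of every tested gene of 8 lists, with filled and named points for adjusted p under 0.05. Jak2 (1.90) stands away from the other receptor-proximal genes, which lie near 0, and the other cytokine receptor chains fall on both sides of 0.

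On the M-CSF receptor side, 3 of 14 signalling and shedding genes were higher, 0 lower and 11 did not pass (median -0.01). The share called over all tested genes was 10.7%. Pstpip2, an adaptor that restrains macrophage activation, was 4.08-fold higher in M1 cells (10.45 and 10.05 against 8.27 and 8.17, 2.03 ± 0.16 SE) and kept its call with every array left out (limma, adjusted p up to 0.0450). The kinase Src (1.20 ± 0.12 SE) and the adaptor Dok2 (1.03 ± 0.11 SE) were the others. Src lost its call without M-CSF replicate 2 (limma, adjusted p = 0.0635) and Dok2 without either M-CSF array (0.0680 and 0.0879). Adam17, the protease that sheds Csf1r from the surface, differed by 0.14 ± 0.15 SE, and Tyrobp, an adaptor that Csf1r signals through, by -0.03 ± 0.11 SE.

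Genes known to respond to M-CSF moved in both directions. Of 8 tested, Fosl2 (1.43 ± 0.14 SE), Dusp6 (0.96 ± 0.12 SE) and Egr1 (0.66 ± 0.13 SE) were higher in M1 cells and Ccnd1, the cyclin that drives entry into the cell cycle (-1.22 ± 0.16 SE), and Maf, a macrophage transcription factor (-0.93 ± 0.19 SE), were lower, with 3 that did not pass (median 0.60). Over all tested genes, 10.7% were called. Ccnd1 read 8.03 and 8.44 against 9.53 and 9.39. Without GM-CSF replicate 1 the differences of Ccnd1 and Maf were -1.02 and -0.65, and without M-CSF replicate 1 or 2, 0 of the 8 passed limma's test, and 5 had an unadjusted p under 0.05 in each. Egr1 also lost its call with quantile normalization (adjusted p = 0.0569).

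Of the transcription factors known to control these receptor genes, Cebpb was higher (0.65 ± 0.13 SE, limma adjusted p = 0.0259), Ets2 was lower (-0.71 ± 0.12 SE, limma adjusted p = 0.0176) and 7 of 9 did not pass (median 0.30). The share of all tested genes called was 10.7%. Spi1, which encodes PU.1, read 11.47 and 11.74 in GM-CSF and 11.82 and 11.87 in M-CSF arrays, a difference of -0.24 ± 0.13 SE. Runx1 differed by 0.47 ± 0.13 SE and Cebpa by 0.30 ± 0.13 SE without passing. Cebpb and Ets2 lost their calls without M-CSF replicate 1 (limma, adjusted p = 0.178 and 0.139) and replicate 2 (0.244 and 0.199).

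Dendritic cells also form in GM-CSF cultures, so their markers are given beside the GM-CSF receptor genes. Of 8 such markers 3 were higher in M1 cells, Itgax, the integrin chain CD11c (4.53 ± 0.23 SE), Clec9a (2.44 ± 0.24 SE) and Ccr7 (1.16 ± 0.20 SE), and 5 did not pass. The differences of those 5 were -0.32 for Flt3, -0.19 for Xcr1, -0.15 for Batf3, 0.25 for Zbtb46 and 0.61 for Cd209a. Of all tested genes, 10.7% were called. Without M-CSF replicate 1 the list had 1 gene called, Itgax, and without M-CSF replicate 2 it had 2, Itgax and Ccr7. The log2 of the summed levels of the list ran from 10.73 to 11.25 in GM-CSF and from 8.95 to 9.02 in M-CSF arrays, a sum in which Itgax was the brightest gene on the GM-CSF arrays (10.72 and 10.05). The mean log2 level of the list was 6.97 and 6.73 in GM-CSF and 5.79 and 5.83 in M-CSF arrays. Flt3 and Xcr1 lay in the background range in both groups and Zbtb46 between 5.91 and 6.32. Their part in the receptor differences was not tested. Eosinophil markers (0 of 3 tested passed with limma, 1 at an unadjusted p under 0.05) and lymphocyte markers (0 of 1, and 0 at an unadjusted p under 0.05) were not called, with log2 summed levels from 7.91 to 8.55 and from 6.96 to 7.11 in GM-CSF arrays against 8.08 to 8.27 and 6.90 to 7.01 in M-CSF arrays. Macrophage markers had 1 of 8 called, where 10.7% of all tested genes were, and it was Cd14 (1.66 ± 0.11 SE, higher). Mrc1 of that list was uneven, at 10.54 and 8.68 in GM-CSF and 9.34 and 9.21 in M-CSF arrays.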

How the data were processed

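Each probe set has a log2 value as deposited. The submitters' processing notes name RMA and Affymetrix Expression Console 1.1 as the authors' tools. RMA subtracts background, brings arrays to a common distribution and summarises probes, so it compresses differences of dim genes. The genome build and the level at which RMA was run are not given in the sources used here. Total RNA (300 ng) was random-primed, amplified and labelled with biotin, per the labels' protocols.

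Of 35556 probe sets, 21789 had 1 platform gene symbol, 1621 several and 12146 none, and 21698 of those with 1 symbol were found by gene ID in a RefSeq table of GRCm38.p6. Where a gene had several probe sets, the one with the highest mean was used. Genes entered when at least 2 of 4 arrays exceeded that array's 30th percentile. The test was limma 3.58.1 (R 4.3.3), two-sided, with moderated variances that rest on 2 residual plus 4.17 prior degrees of freedom. Its p-values were adjusted over 14995 genes by the Benjamini-Hochberg method. Gaps between members used an exact permutation test. The fit was tested on simulated data. The share of false calls was below the threshold when variances were drawn from limma's fitted prior, and was above it in a first simulation that gave each gene its own moderated variance, so adjusted p-values close to 0.05 may be too small. Python 3.11.15, pandas 2.3.3 and matplotlib 3.10.9 made tables and plots.

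Alternatives were other filters, normalizations, variances, probe set means, a replicate block and leaving out each array. The members and lists were chosen with earlier results of these data known. The text names the members, genes of the fixed lists that passed or had large differences, marker genes, and the 3 genes with the nearest profile to each member. Xist, Eif2s3y and genomic neighbours were picked with their values in view. No scan dates were in the values, so batches were not tested. The number of arrays limits the precision.

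Promoter windows came from RefSeq (GRCm38.p6), which held 5 of the 7 members in the table used.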

Additional observations from a re-analysis of the deposited data

How the results depend on the processing

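Each of 7 member differences was refitted under 11 alternatives, and in 63 of 77 refits its direction and its side of the threshold were as in the fit of 4 arrays. Csf2rb2 kept both in all 11. Each member had 1 probe set, so averaging probe sets could not move its difference. The other filters, the variances and the replicate block also leave a difference unchanged and can move only its adjusted p. With an array left out, the difference ran from 1.09 to 1.17 for Csf2ra, from 1.69 to 2.31 for Csf2rb, from -0.69 to -1.03 for Csf3r, from 0.96 to 2.34 for Csf1, from -0.01 to 0.34 for Csf1r and from -0.07 to 0.11 for Il3ra. The number of members called ran from 1 to 5. Genes called higher ran from 168 to 1683 (926 with all arrays) and lower from 65 to 1522 (679). These fits drop from 2 to 1 residual degree of freedom, and without a GM-CSF array the closer M-CSF pair sets the spread. Il3ra turned to -0.013 with median centring and -0.0078 with quantile normalization, and without GM-CSF replicate 2 and M-CSF replicate 1 it was -0.068 and -0.022. Csf1r was -0.0093 without GM-CSF replicate 2. With the replicate number as a block, Csf1 passed (1.65, limma adjusted p = 0.0143). The labels give no origin for the numbers, and same-numbered arrays deviated together with a correlation of 0.065 over genes, so they were not taken as pairs. The cause was not tested. In the 8 lists of ligands, other receptors and downstream genes, 69 of 88 counts of called genes stayed within 1.5 times or stayed at 0. The ligand list had 0 called in every fit, and its counts are among the 69. Precision is limited by 2 arrays per group.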
